A study of Mus musculus with 20 samples.

Results

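The genes described here are 45 genes of endothelial cells and vessels: surface and junction proteins, VEGF and angiopoietin signalling, transcription factors, arterial and Notch genes, and markers of capillaries, sinusoids and lymphatic vessels. They were chosen by symbol, from a list of names and with earlier results of these data known. They were read through every probe set annotated to those symbols. All 45 genes had such probe sets, 81 in total, out of 18193 genes named singly on the array. Present calls on at least 5 of the 20 arrays let 74 of the 81 enter the test, among 27141 probe sets for 12430 genes, and the other 7 were not tested. Each of the 45 genes kept at least 1 tested probe set, and a gene is described by its brightest one. Pecam1, Flt1, Cldn5 and Emcn, the markers that define the label, were called present on 20 of 20 arrays.

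The arrays measured RNA of the femoral shaft of mice with the X-linked mutation Hyp and of their normal littermates, at 5 weeks of age and on the C57BL/6J background. Hyp is a deletion at the 3′ end of Phex, a peptidase gene of bone-forming cells, and it models human X-linked hypophosphatemia. The 4 groups were wild-type males, hemizygous Hyp/Y males, wild-type females and heterozygous Hyp/+ females, which carry 1 normal copy of the gene. There were 5 arrays in each group and 2 mice behind each array (40 mice), arranged in 5 series of littermates, so that a Hyp and a normal array of 1 sex and 1 series form a pair, 10 pairs in all. The mutation was present in every tissue from conception, and the shafts had been rinsed of marrow only as far as rinsing allowed, so cortical bone, remaining marrow and adhering tissue were measured together.

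Endothelial cells line every vessel and signal through a shared set of receptors. VEGF ligands act through the receptors Flt1, Kdr and Flt4 and the co-receptor Nrp1, and angiopoietins act through Tek, while Notch signalling with SOX factors marks arterial cells. In long bones, vessels run through the canals of the cortex and feed the wide sinusoids of the marrow, and capillaries rich in endomucin and Pecam1 lie next to bone-forming cells.

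Most vessel genes had higher signals in Hyp shafts than in normal shafts. Over both sexes 9 of the 45 rose and 0 fell, where 1.02% of all genes rose and 1.42% fell (limma, adjusted p under 0.05 over all probe sets tested). The 9 were Pecam1, Cldn5, Clec14a, Ushbp1, Flt1, Sox18, Plvap, Stab1 and Stab2, with fitted folds of 1.31 to 1.50. The fold change was positive for 40 of the 45, where 49.6% of all genes were positive, and the median log2 fold change of the 45 was 0.32 against 0.00 for all genes. At an unadjusted limma p under 0.05, 30 of the 45 were higher, where 10.7% of all genes were. Because the 45 were chosen with earlier results of these data known, these shares give context and no independent test. In bulk RNA, more or fewer cells of a type and more or less RNA per cell cannot be told apart.

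The number of calls moved with each series. The fit without series 1 called 2 of the 45 genes, without series 3 it called 5, and without series 2, 4 or 5 it called 0. With 1 array left out the count ran from 3 to 12, and without the series as a block it was 4. The share of all probe sets that rose moved too, from 1.08% to between 0.0295% and 0.943% without a series, between 0.438% and 2.12% without an array, and 0.442% without the block.

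**Figure D1:**
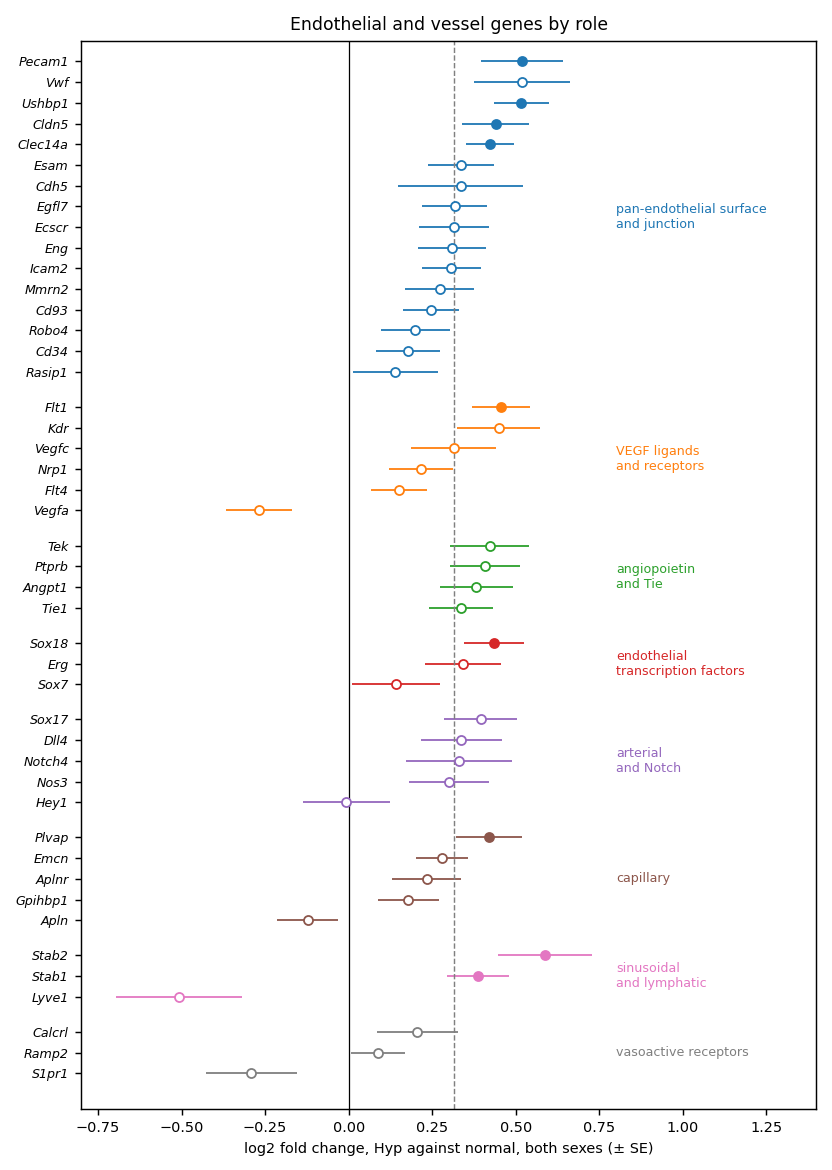
Log2 fold change of each of the 45 genes, Hyp against normal over both sexes, with bars of 1 SE, ordered within 8 roles. Filled points are the 9 genes past the threshold, the dashed line is the median of 0.32, and 5 points lie below 0.

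Several genes were read by more than 1 tested probe set. For 18 of 18 such genes every probe set had the same sign. Among probe sets, 1.08% of all those tested rose. Probe sets other than the brightest also rose for Flt1, for Ptprb (0.52 ± 0.08, SE, limma adjusted p = 0.0083) and for Mmrn2 (0.37 ± 0.09, limma adjusted p = 0.0395), so that 11 genes rose by at least 1 probe set. The count by any probe set was added after the values were seen. The same count over all genes was not made, and genes with several probe sets have more chances to pass. Probe sets of 1 gene read the same RNA and are no replicates of each other.

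RefSeq gave the sequence before the start site for 24 of the 45 genes, 6 of the 9 that rose among them, on build GRCm38.p6. The last 250 bases before the start are shown for Ushbp1, Stab1 and Flt1, which rose, and for the marker Emcn, so that the stretches next to the genes described most closely can be read. Capitals mark AGGAAG or its reverse complement CTTCCT, the core bound by ETS factors, a family that includes the endothelial factor Erg. The stretches are chr8:71395802-71396051 (minus strand) for Ushbp1, chr14:31168642-31168891 (minus) for Stab1, chr5:147726012-147726261 (minus) for Flt1 and chr3:137340828-137341077 (plus) for Emcn.
Ushbp1: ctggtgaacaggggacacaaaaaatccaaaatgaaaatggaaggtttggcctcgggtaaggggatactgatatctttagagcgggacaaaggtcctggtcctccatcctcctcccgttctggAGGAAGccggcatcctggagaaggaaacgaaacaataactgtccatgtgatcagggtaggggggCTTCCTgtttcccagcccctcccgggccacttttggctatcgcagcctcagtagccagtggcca
Stab1: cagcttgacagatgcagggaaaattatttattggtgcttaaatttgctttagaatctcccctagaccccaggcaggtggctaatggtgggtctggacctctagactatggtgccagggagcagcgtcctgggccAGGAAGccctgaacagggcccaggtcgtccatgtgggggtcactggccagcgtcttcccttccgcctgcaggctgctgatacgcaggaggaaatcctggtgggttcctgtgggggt
Flt1: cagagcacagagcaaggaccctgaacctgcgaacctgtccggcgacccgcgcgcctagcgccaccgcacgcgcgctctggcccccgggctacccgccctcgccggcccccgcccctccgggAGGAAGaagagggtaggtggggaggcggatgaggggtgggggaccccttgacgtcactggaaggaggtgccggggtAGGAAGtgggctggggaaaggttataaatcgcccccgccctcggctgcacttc
Emcn: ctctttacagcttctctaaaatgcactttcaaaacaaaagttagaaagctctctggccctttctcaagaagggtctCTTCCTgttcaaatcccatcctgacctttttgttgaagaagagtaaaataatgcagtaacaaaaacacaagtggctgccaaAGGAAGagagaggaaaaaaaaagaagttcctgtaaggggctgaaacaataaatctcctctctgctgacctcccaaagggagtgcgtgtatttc

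The Ushbp1 stretch holds 2 matches, Stab1 holds 1, and Flt1 and Emcn hold 2 each. In all, 12 letter strings were searched on both strands of the 250 bases, and the string to mark was picked after all 12 counts had been seen. AGGAAG was in 58.6% of the 29 promoters of these genes and in 29.5% of all 32851 promoters. The longer CAGGAAG was in 41.4% against 10.8%, and CAGGAA, which overlaps both, in 58.6% against 25.7%. AGGAAGT was in 13.8% against 7.69% and GGAAGT in 20.7% against 19.7%, while CCGGAAG and ACCGGAAG, other ETS forms, were in 0 of the 29 against 6.91% and 1.72%. Of the SOX strings, AACAAT was in 17.2% against 9.42% and ACAAAG in 17.2% against 16.5%. The hypoxia core ACGTG was in 6.9% against 16.6%, TATAAA in 6.9% against 12.4%, and the GATA string GATAAG in 3.45% against 6.55%. These matches describe letters, not bound sites, and no test was made of them, and several strings overlap each other. The promoters also differed in base composition, with a median of 58.4% G and C against 52.4% in all promoters.

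Surface and junction genes shared by most endothelial cells made up the largest group. Of its genes, 16 of 16 were positive, where 49.6% of all genes were. Of these, 4 rose, where 1.02% of all genes did, and the median was 0.32. Pecam1, an adhesion molecule at endothelial contacts that platelets and leukocytes also carry, had signals in series 1 to 5 of 1613, 1871, 1489, 1409 and 1355 in normal males and 2196, 2443, 1965, 1872 and 2918 in Hyp males. In females the normal arrays read 2179.9, 2024, 1236, 1476 and 988, and the Hyp arrays 1922, 2259, 2053, 2545 and 1973. The male groups met without overlapping, at 1871 and 1872, and in females series 1 alone was lower in Hyp. The fold was 1.43 (95% interval 1.19 to 1.72), higher in 9 of 10 pairs (limma adjusted p = 0.0417).

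Cldn5, the main claudin of endothelial tight junctions, read 1014, 801, 786, 749 and 842 in normal males and 1125, 1209.9, 1174, 968 and 1359 in Hyp males. Normal females read 1012, 798, 595, 723 and 908, and Hyp females 869, 1055, 1028, 1309.9 and 1089.8. Both sexes overlapped, in males through Hyp series 4 and normal series 1 only, and the pair of female series 1 was the one that ran downward. The fold was 1.36 (1.17 to 1.57; limma adjusted p = 0.0346).

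Clec14a, a C-type lectin of angiogenic endothelium, read 631, 596, 533, 601 and 689 in normal males and 939, 848, 853, 676 and 1006 in Hyp males. The female signals were 665, 762, 592, 649 and 716 in normal mice and 836, 804, 812, 937 and 980.3 in Hyp mice. Every Hyp female lay above every normal female, the male groups overlapped through 1 Hyp array, and 10 of 10 pairs ran upward. The fold was 1.34 (1.21 to 1.49, limma adjusted p = 0.00969). A second Clec14a probe set, at 0.54 ± 0.21 (SE) on the log2 scale, did not pass (limma adjusted p = 0.164). Its groups overlapped in both sexes, and it was higher in Hyp in 5 of 5 male pairs and 3 of 5 female pairs.

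Ushbp1, named as a binding partner of an Usher syndrome protein, had the lowest adjusted p of the 45 genes. Normal males read 536, 494, 370.4, 354 and 459.6, and Hyp males 802, 689, 614, 560.4 and 919. Normal females read 718, 606, 470.3, 436 and 581, and Hyp females 735, 674, 574, 794 and 835. The males did not overlap, the females did, and 10 of 10 pairs ran upward, with a fold of 1.43 (1.27 to 1.62; limma adjusted p = 0.00844). In males alone Ushbp1 was the 1 gene of the 45 that passed, at 0.67 ± 0.12 on the log2 scale (limma adjusted p = 0.0464).

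Cd93, a C-type lectin receptor that myeloid cells also carry, gave the brightest probe set of this group. It read 5184, 4328, 4019, 4095 and 3749.6 in normal males and 5689.9, 5158, 4802, 4349 and 5946 in Hyp males. In females it read 4692, 4919, 3535, 4026 and 4054 in normal mice and 5043, 5995, 4390.0, 5522 and 3848 in Hyp mice. The groups overlapped in both sexes and series 5 of the females ran downward, and the log2 fold change of 0.25 ± 0.08 did not pass (limma adjusted p = 0.119).

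The other 11 surface and junction genes did not pass, with log2 fold changes from 0.14 for Rasip1, a junction regulator, to 0.52 for Vwf, the clotting factor of endothelium and megakaryocytes. Between them stood Esam, a junction adhesion molecule, at 0.34, Cdh5, the cadherin of endothelial junctions, at 0.34, and Egfl7, a secreted endothelial factor, at 0.32. Ecscr was at 0.32, Eng, a co-receptor of the TGF-beta family, at 0.31, Icam2 at 0.31, Mmrn2, a matrix ligand of Clec14a and Cd93, at 0.27, Robo4 at 0.20 and Cd34 at 0.18. The SE of Cdh5, 0.19, was the widest of this group, and its pairs ran upward in 6 of 10.

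Among the VEGF ligands and receptors, the receptor Flt1 rose and the ligand Vegfa was lower. Flt1, which binds VEGF with high affinity and has a soluble form, read 730.2, 640.4, 582, 792 and 546 in normal males and 863, 1169, 934, 996 and 930.5 in Hyp males. Normal females read 675, 853, 671, 678 and 791, and Hyp females 934, 1302, 708, 964 and 849. The male groups did not overlap, the female groups did, and all 10 pairs ran upward. Its fold was 1.37 (1.21 to 1.56; limma adjusted p = 0.0175). The other 3 probe sets of Flt1 stood at 0.50, 0.48 and 0.36 on the log2 scale, with limma adjusted p of 0.0451, 0.0242 and 0.0774.

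Vegfa, the main ligand of Flt1 and Kdr, was one of 5 genes below 0. Male signals averaged 1150.1 ± 163 (SD, n = 5) without and 929 ± 161 with the mutation, and female signals 1234 ± 217 and 1046 ± 126. The log2 fold change was -0.27 ± 0.10 (SE), lower in 8 of 10 pairs, and did not pass (limma adjusted p = 0.145). A second Vegfa probe set was lower in 10 of 10 pairs, at -0.41 ± 0.12, and did not pass either (limma adjusted p = 0.0776).

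Kdr, the main signalling receptor of VEGF, was at 0.45 ± 0.13 (SE), higher in 10 of 10 pairs (limma adjusted p = 0.0661). Vegfc, the lymphatic ligand, was at 0.31 and its receptor Flt4, called present on 12 of 20 arrays, at 0.15. Nrp1, the co-receptor and the brightest probe set of this group, read 4921, 4282, 3592, 4267 and 3137 in normal males and 4438, 4307, 4277, 4252 and 5038 in Hyp males. It read 3903, 4275, 3084, 3683 and 4942 in normal females and 4153, 4992, 4849.9, 5246 and 4604 in Hyp females. The groups overlapped in both sexes, 3 of 10 pairs ran downward, and the log2 fold change was 0.22 ± 0.10 (limma adjusted p = 0.222).

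**Figure D2:**
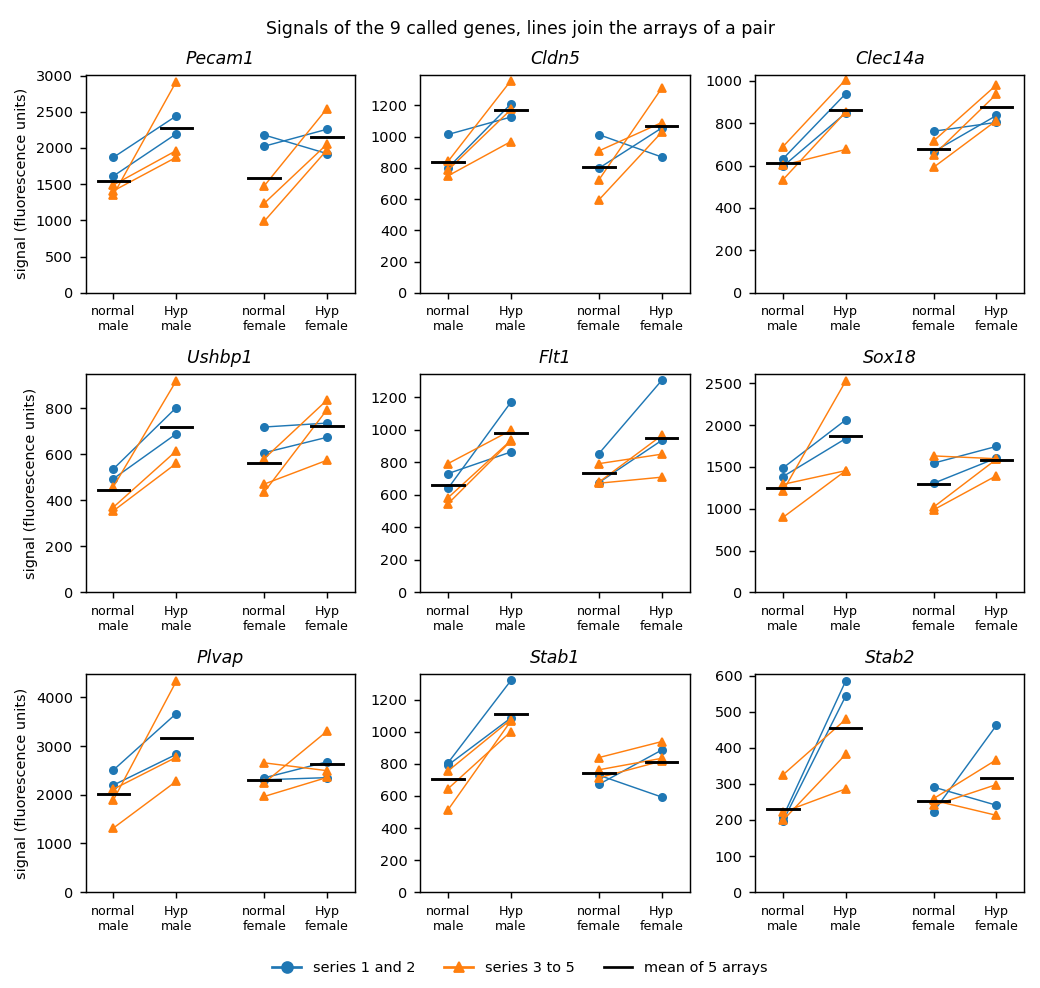
Signals, in fluorescence units on linear axes from 0, of the 9 genes that rose. Points are arrays, lines join the Hyp and normal array of a pair, colours part series 1 and 2 from series 3 to 5, and black bars are means of 5 arrays. Male groups are apart for Pecam1, Ushbp1, Flt1 and Stab1, and female groups for Clec14a.

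The 4 genes of the angiopoietin and Tie group were all positive (49.6% of all genes), with a median of 0.40. None passed, where 1.02% of all genes rose and 1.42% fell (lowest limma adjusted p 0.0519, for Ptprb). Ptprb, a phosphatase that restrains Tek, read 3350.4, 2964, 2776, 2680.5 and 2175 in normal males and 3368, 3912, 3094, 3295 and 4702 in Hyp males. The females read 3079, 3555, 2232, 2606 and 2371 when normal and 3242, 4264, 3462, 4419.9 and 3129 when Hyp. All 10 pairs ran upward, with overlap in both sexes, at 0.41 ± 0.10 (SE). Tek, the angiopoietin receptor, was at 0.42 ± 0.12 (limma adjusted p = 0.0668), Angpt1, its activating ligand, which megakaryocytes and stromal cells also make, at 0.38 ± 0.11 (limma adjusted p = 0.0707) and Tie1 at 0.34 ± 0.10 (limma adjusted p = 0.0739). Hyp males lay wholly above normal males for Tek, and Hyp females above normal females for Angpt1.

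Of the 3 transcription factors 1 rose, Sox18, where 1.02% of all genes did. Sox18, which acts in vascular and lymphatic development, read 1488, 1385, 897, 1292 and 1213 in normal males and 2063, 1839.8, 1456, 1456 and 2528 in Hyp males. Normal females read 1306, 1546, 988, 1022 and 1632, and Hyp females 1607, 1746, 1396, 1593 and 1599. Both sexes overlapped and the pair of female series 5 alone ran downward, by a small step. The fold was 1.35 (1.19 to 1.54; limma adjusted p = 0.0235). Erg, an ETS factor that maintains endothelial identity, was at 0.34 ± 0.11 (limma adjusted p = 0.112), and Sox7 at 0.14 ± 0.13.

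In the arterial and Notch group 4 of 5 genes were positive (49.6% of all genes). None of the 5 passed, where 1.02% of all genes rose and 1.42% fell. This holds for that group only, since the arterial gene Gja4 and the receptor Notch1, in other lists described below, rose. Sox17, an arterial SOX factor, read 1329, 1016, 999.6, 900.3 and 954 in normal males and 1373, 1502, 1366, 966 and 1693 in Hyp males. Female signals were 1061, 1588, 921, 979 and 1044 in normal and 1241, 1859, 1312, 1621 and 1306 in Hyp mice. All 10 pairs ran upward with overlapping groups, at 0.40 ± 0.11 (SE; limma adjusted p = 0.0653). Dll4, a Notch ligand of arterial and sprouting cells, was at 0.34, Notch4, an endothelial Notch receptor, at 0.33, and Nos3, the endothelial nitric oxide synthase, at 0.30. Hey1, a target of Notch that bone-forming cells also express, was at -0.01 ± 0.13.

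Of the 5 genes of the capillary group 1 rose, Plvap, where 1.02% of all genes did. Plvap, the protein of the diaphragms of fenestrated capillaries and sinusoids, read 2508, 2199, 1317, 2115 and 1895 in normal males and 3668, 2829, 2277, 2770.2 and 4329.9 in Hyp males. It read 2347, 2308, 1965, 2242 and 2655 in normal females and 2675, 2351, 2355, 3305 and 2494 in Hyp females. The groups overlapped in both sexes, and series 5 of the females was the 1 pair that ran downward. The fold was 1.34 (1.15 to 1.55; limma adjusted p = 0.0417).

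Emcn, a sialomucin of capillaries and veins, read 1745, 1902, 1411, 2163 and 1538 in normal males and 2110.5, 2118, 2023, 2263 and 2644 in Hyp males. Normal females read 1684, 2271, 1649.7, 2043 and 1945, and Hyp females 1836, 2298, 2185, 2445 and 2267. All 10 pairs ran upward while both sexes overlapped, and the log2 fold change of 0.28 ± 0.08 did not pass (limma adjusted p = 0.0648).

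Aplnr, the apelin receptor, gave the brightest probe set of the capillary group, with 11480.0, 9382, 5889, 9591 and 8419 in normal males and 11686, 9211, 8967, 10098 and 12616 in Hyp males. Its female signals were 10671, 9739, 7075, 8734 and 8233 in normal and 9939.5, 9846, 11170.4, 11985 and 8467 in Hyp mice. The groups overlapped, and the log2 fold change was 0.23 ± 0.10 (limma adjusted p = 0.217). Its ligand Apln was at -0.12 ± 0.09 and Gpihbp1, which anchors lipoprotein lipase to capillaries, at 0.18 ± 0.09.

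The sinusoidal and lymphatic genes were split. Stab1, a scavenger receptor of sinusoids that macrophages also carry, read 808, 794, 515, 646 and 757 in normal males and 1321, 1087, 1069, 1002 and 1077 in Hyp males. Normal females read 673, 729.6, 763, 714 and 839.6, and Hyp females 886, 593, 835, 818 and 939. The males did not overlap and the females did, and the fold was 1.31 (1.14 to 1.50; limma adjusted p = 0.0445). Stab2, a hyaluronan receptor of sinusoids, read 196, 208, 325, 221 and 199 in normal males and 544, 585, 479, 286 and 382 in Hyp males. Its female signals were 223, 291, 240.4, 254 and 259 in normal and 463, 241, 298, 213 and 367 in Hyp mice. Both sexes overlapped, females in series 2 and 4 ran downward, and the fold was 1.50 (1.22 to 1.85; limma adjusted p = 0.0426).

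Lyve1, the hyaluronan receptor of lymphatic endothelium and of some macrophages, had the lowest log2 fold change of the 45, at -0.51 ± 0.19, and did not pass (limma adjusted p = 0.144). It was called present on 17 of 20 arrays. Male signals averaged 258 ± 84.5 (SD, n = 5) without and 126 ± 80.4 with the mutation, lower in 5 of 5 male pairs, and female signals 182 ± 52.4 and 181 ± 38.7. A second Lyve1 probe set stood at -0.08 ± 0.16.

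None of the 3 vasoactive receptors passed, where 1.02% of all genes rose and 1.42% fell. Ramp2, the partner that makes Calcrl an adrenomedullin receptor, read 1727, 1699.7, 1150.4, 1154 and 1145 in normal males and 1671, 1615, 1144, 1286 and 1676 in Hyp males. It read 1918, 1502, 1044, 959.5 and 1414 in normal females and 1627, 1475, 1257, 1310.0 and 1295 in Hyp females. The groups overlapped and 4 of 10 pairs ran upward, at 0.09 ± 0.08. Calcrl was at 0.21 ± 0.12, and S1pr1, a sphingosine-1-phosphate receptor of endothelium and lymphocytes, at -0.29 ± 0.14 (limma adjusted p = 0.249).

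In 10 of 10 pairs the Hyp signal was the higher for 7 of the 45 genes, namely Flt1, Kdr, Ptprb, Sox17, Emcn, Clec14a and Ushbp1, where 1.33% of all genes did so. No gene had all 10 Hyp signals above all 10 normal ones (0.0322% of all genes). Within males the Hyp signals lay wholly above the normal ones for Flt1, Tek, Icam2, Pecam1, Ushbp1 and Stab1 (1.86% of all genes), and within females for Angpt1 and Clec14a (0.628%).

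The male log2 fold change lay above the female one for 35 of the 45 genes, as it did for 52.1% of all genes. Within males 1 gene passed (0.0965% of all genes) and the median was 0.39. Within females 0 passed (0.00805%) and the median was 0.23, with 12 genes at an unadjusted limma p under 0.05, where 9.82% of all genes were. A sex difference of the response was not shown for any of the 45, since 0 passed the interaction of genotype and sex, with a lowest limma adjusted p of 0.751 where 0.00805% of all genes passed. At an unadjusted p under 0.05 there were 4 of the 45, and 6.87% of all genes. The widest gaps were in the sinusoidal and lymphatic group. Stab2 was at 0.92 ± 0.20 in males and 0.25 ± 0.20 in females, Stab1 at 0.66 ± 0.13 and 0.12 ± 0.13, and Lyve1 at -1.02 ± 0.27 and 0.01 ± 0.27. Between females and males over both genotypes 0 of the 45 differed (limma, lowest adjusted p 0.231), with 0.0965% called among all genes. At an unadjusted p under 0.05 there was 1 of the 45, and 15.3% of all genes.

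**Figure D3:**
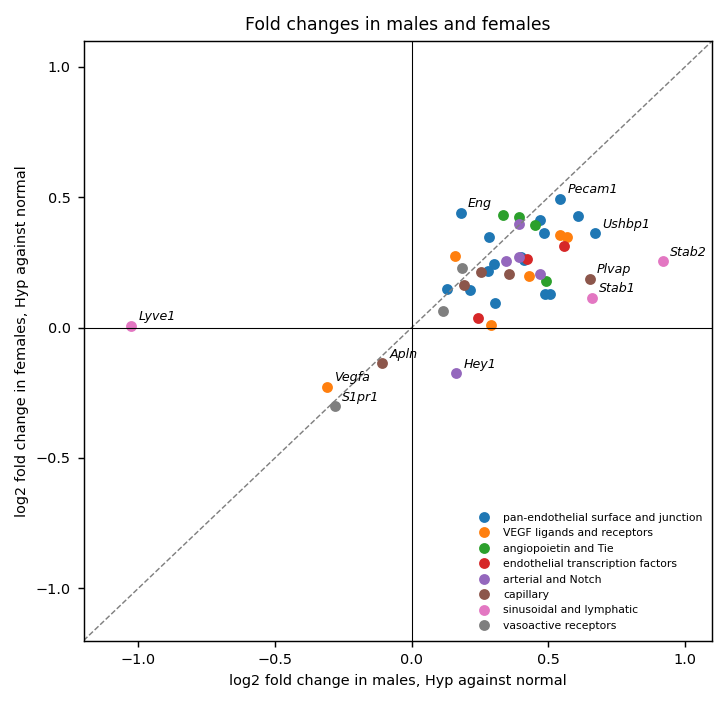
Log2 fold change in females against that in males for each of the 45 genes, coloured by role, with the dashed line of equal change. The points of 35 genes lie below that line, and Lyve1 stands apart at -1.02 in males and 0.01 in females.

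The size of the shift differed between pairs. In the male pairs of series 1 to 5, the Hyp array was higher for 31, 33, 40, 31 and 42 of the 45 genes, with median log2 differences of 0.13, 0.24, 0.37, 0.15 and 0.78. In the female pairs it was higher for 20, 27, 41, 40 and 27, with medians of -0.03, 0.08, 0.40, 0.55 and 0.12. The largest shifts were thus in male series 5 and female series 4, and female series 1 showed none. Over all genes, 48% to 54.1% were higher in the Hyp array of a pair. The mean of the pair medians was 0.10 ± 0.11 (SD, n = 4) in series 1 and 2 and 0.39 ± 0.25 (n = 6) in series 3 to 5.

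The normal arrays of the 2 sets of series lay further apart than the Hyp arrays. Taking each gene relative to its mean over 20 arrays, the median over the 45 genes was -0.05 to 0.09 in the 4 normal arrays of series 1 and 2 (middle value 0.06), and -0.35 to -0.05 in the 6 of series 3 to 5 (middle value -0.28). In the Hyp arrays it was 0.10 to 0.24 (middle value 0.16) and 0.01 to 0.40 (middle value 0.06). Fitted on series 1 and 2 alone, 32 of the 45 were positive (46.2% of all genes) with a median of 0.13. On series 3 to 5 alone 41 were positive (52% of all genes) with a median of 0.42. In each of these smaller fits 0 of the 45 passed. At an unadjusted limma p under 0.05 there were 6 in series 1 and 2, against 13% of all genes, and 32 in series 3 to 5, against 11%. Over all probe sets the 2 fits called 0 and 1. Pecam1 stood at 0.20 ± 0.14 in series 1 and 2 and 0.73 ± 0.15 in series 3 to 5, Ushbp1 at 0.30 ± 0.13 and 0.66 ± 0.11, Flt1 at 0.54 ± 0.16 and 0.40 ± 0.11, and Stab2 at 0.89 ± 0.23 and 0.38 ± 0.15. What separates the 2 sets is not given in the sources used here.

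Signs of RNA quality moved with genotype. The ratio of the 3′ to the 5′ actin probe sets, which rises as RNA degrades, was 1.45 to 1.72 in normal males, 1.67 to 1.88 in Hyp males, 1.42 to 1.58 in normal females and 1.54 to 1.68 in Hyp females, and its log2 value was higher in Hyp in 9 of 10 pairs. In series 1 to 5 the log2 difference was 0.14, 0.16, 0.29, 0.13 and 0.12 in male pairs and -0.03, 0.13, 0.13, 0.24 and 0.09 in female pairs. The lowest difference and the lowest median of the 45 genes were both in female series 1. The highest difference, 0.29 in male series 3, went with a median of 0.37, and the difference of 0.24 in female series 4 with 0.55. The highest median, 0.78 in male series 5, went with a difference of 0.12. With the ratio as a covariate, 36 of the 45 were positive (48.8% of all genes) with a median of 0.16. Of the 40 that were positive without it, 35 kept their sign and Aplnr, Cdh5, Notch4, Rasip1 and Sox7 did not, while Lyve1 turned positive. In that fit 0 of the 45 passed (lowest limma adjusted p 0.142), with 7 at an unadjusted p under 0.05, where 12.2% of all genes were, and the median SE of the 45 went from 0.10 to 0.17. Over all probe sets that fit called 1. With it Pecam1 stood at 0.37 ± 0.22, Cldn5 at 0.17 ± 0.16, Clec14a at 0.29 ± 0.12, Ushbp1 at 0.38 ± 0.14, Flt1 at 0.35 ± 0.15, Sox18 at 0.26 ± 0.15, Plvap at 0.29 ± 0.17, Stab1 at 0.42 ± 0.17 and Stab2 at 1.03 ± 0.21. The part of RNA quality in the higher signals was not tested beyond this fit.

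Other endothelial genes, a list of 42 names with 38 tested, were also mostly positive (35 of 38, where 49.6% of all genes were). Of the 38, 7 rose and 0 fell, where 1.02% of all genes rose and 1.42% fell, and the median was 0.29. Among the 7 were Gja4, a connexin of arterial endothelium, at 0.69 ± 0.12, and Sele, an adhesion molecule of activated endothelium, at 0.68 ± 0.13. Lyl1, a transcription factor of blood and vessel cells, was at 0.54 ± 0.11, and Tfpi, an inhibitor of clotting, at 0.49 ± 0.11. Cyyr1 was at 0.49 ± 0.10, She at 0.48 ± 0.08 and Myct1 at 0.41 ± 0.08 (limma adjusted p of the 7 from 0.0103 to 0.0346). Sele was called present on 5 of 5 Hyp male arrays and on 3 of the other 15. It met the present-call filter only through that group, where it was high, so its call is no independent support. The wider angiogenic signalling genes, 29 tested, had 1 rise and 0 falls, where 1.02% of all genes rose and 1.42% fell. Their median was 0.05. The riser was Notch1, a Notch receptor, at 0.38 ± 0.08 (limma adjusted p = 0.0257).

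Markers of other cells that the shaft can hold moved to different degrees. Of all genes 1.02% rose and 1.42% fell, and the counts called in these lists are read beside those shares. Mural cell markers, of pericytes and vascular smooth muscle, had 12 genes tested, 0 called and a median of 0.24, with summed signals of 41947 to 61304 in normal males, 47830 to 68109 in Hyp males, 42685 to 59081 in normal females and 52944 to 64424 in Hyp females. Cnn1 of that list was called present on 0 arrays. Their pair medians were highest where those of the 45 genes were highest, 0.76 in male series 5 and 0.52 in female series 4, and were below 0 in series 1, at -0.25 in males and -0.10 in females.

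Megakaryocyte markers, of which 8 were tested, were positive in 8 of 8 (49.6% of all genes) with a median of 0.59. Of these 1 rose (1.02% of all genes), Gp5, a platelet glycoprotein, at 0.70 ± 0.17 (limma adjusted p = 0.0416). Gp5 was called present on 8 Hyp arrays and 2 normal ones, so it too met the filter only through the Hyp arrays, where it was high. Their summed signal was 7952 to 19996 in normal males, 14365 to 34814 in Hyp males, 8679 to 15584 in normal females and 9527 to 23791 in Hyp females. Their pair medians were highest in male series 2 (1.92), female series 1 (1.36) and male series 1 (1.16). The medians of the 45 genes there were 0.24, -0.03 and 0.13. They were below 0 in male series 5 (-0.35), female series 3 (-0.19) and female series 4 (-0.07), where the medians of the 45 genes were 0.78, 0.40 and 0.55. In male series 4 and 3 and female series 5 and 2 they were 0.999, 0.39, 0.296 and 0.075. The 45 genes stood at 0.154, 0.367, 0.116 and 0.076 in those pairs. Whether these medians moved together was not tested.

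Erythroid markers, 7 tested, were positive in 7 of 7 (49.6% of all genes) with a median of 0.48 and 0 called. Their summed signals were 21109 to 50815 in normal males, 45286 to 80437 in Hyp males, 20799 to 36666 in normal females and 25972 to 35342 in Hyp females. Macrophage markers, 11 tested, had a median of 0.07 and 0 called, with Marco called present on 0 arrays. Their summed signal was 17593 to 26512 in normal males, 20585 to 24152 in Hyp males, 19330 to 25652 in normal females and 15566 to 24427 in Hyp females. Hematopoietic progenitor markers, 7 tested, had a median of 0.22 and 0 called, neutrophil markers, 8 tested, one of -0.01, and B cell markers, 6 tested, one of -0.22, again with 0 called. Of the T and NK cell markers, 2 were tested, and Cd3e, Cd3d and Cd3g were called present on 0 arrays. Muscle markers had a median of 0.04 and adipocyte markers one of -0.12, each with 0 called. The part of any of these cell types in the signals of the 45 genes was not tested.

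Osteocyte markers were lower. Of 8 tested, 8 were negative, with a median of -0.69, where 49.6% of all genes were positive. The 4 that fell were Sost, Dkk1, Dmp1 and Pdpn, where 1.42% of all genes fell. Sost was called present on 0 of 5 Hyp male arrays. The 7 osteoblast and bone matrix genes were mixed, with 3 positive (Col1a1 at 0.15, Col1a2 at 0.13 and Sparc at 0.02), 4 negative and a median of -0.09, and 1 fell, Ifitm5, at -0.87 ± 0.14 (limma adjusted p = 0.00903). On arrays scaled to 1 mean, each signal is a share of the whole, so the vessel signals are read relative to all other transcripts of the shaft.

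**Figure D4:**
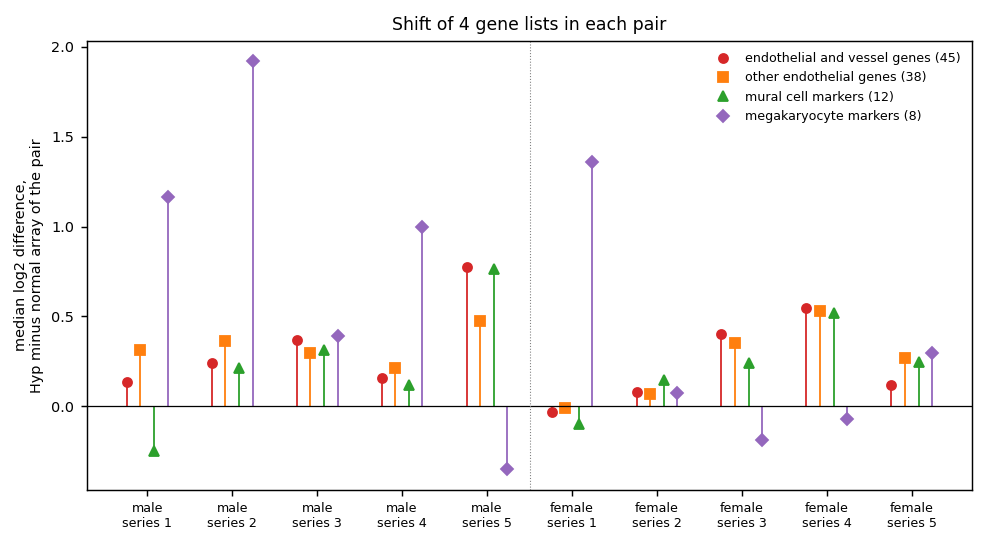
Median log2 difference between the Hyp and the normal array of each of the 10 pairs, for the 45 genes, 38 other endothelial genes, 12 mural cell markers and 8 megakaryocyte markers. The mural medians peak with those of the 45 genes in male series 5 and female series 4. The megakaryocyte medians are highest in male series 2, female series 1 and male series 1, and stand at 0.075 in female series 2.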

How the data were processed

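Total RNA of femoral shafts was measured on 20 Affymetrix mouse arrays, 5 in each of 4 groups. Linear intensity values per probe set were deposited by the authors, made with GCOS per the submitters' processing notes, version not given; the trimmed mean was 500 on each array. The detection calls (present, marginal, absent) are the authors' deposited text. Of 45101 probe sets, 64 controls were left out; 34958 carry 1 symbol in the array's gene table, 932 several and 9211 none.

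Intensities were taken to log2 after adding a pseudocount of 16, without further normalization, and probe sets called present on fewer than 5 arrays were left out. One limma 3.58.1 model (R 4.3.3) fitted the 4 groups with series as a block, with p-values adjusted by Benjamini and Hochberg over 27141 probe sets at a threshold of 0.05. The fit was tested on simulated data. The number of arrays limits the precision: the median SE was 0.11 for both sexes together and 0.16 for 1 sex. Tables and plots used Python 3.11.15, pandas 2.3.3 and matplotlib 3.10.9.

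Series numbers pair the arrays because, per the labels, each replicate held littermates processed in parallel. Deviations from group means correlated at -0.03 to 0.42 (median 0.22) between arrays of 1 series. Between arrays of different series they correlated at -0.43 to 0.36 (median -0.07), so the ranges overlapped. Centring on group means ties these medians to each other, so the comparison is no independent check of the pairing. The labels do not describe separate repeats of 1 RNA, and p-values measure the spread between these pools of mice.

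The 45 genes and all lists were chosen with earlier results of these data known. Array values are given for genes that passed over both sexes, the 4 markers and the brightest gene of each role; folds also for the largest rise and fall of each role. The remaining genes of the 45 are accounted for by their folds; errors or p-values given beyond this rule, and folds of further probe sets, were chosen after the values were seen. Genes of other lists are named where they passed, with Col1a1, Col1a2 and Sparc added after their values were seen. Alternatives were no block, pseudocounts, quantile normalization, present-call filters, an analysis of variance on linear signals, the actin ratio as a covariate, sets of series, and arrays or series left out. Promoters and symbols came from RefSeq tables of GRCm38.p6.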

Additional observations from a re-analysis of the deposited data

Results flagged for a closer look

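In groups of 5 arrays, 1 array stood far from the other 4 in 3 of the 64 groups examined, for the 16 genes with array values. Chance gives about 1 in 20 such groups. The Stab2 signal of normal male series 3 was 325.1, where the next array read 221.4. The Nrp1 signal of Hyp male series 5 was 5037.5, where the next read 4438.1. The Sox17 signal of normal female series 2 was 1587.9, where the next read 1061.4.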

How the results depend on the processing

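The median log2 fold change of the 45 genes kept its direction over both sexes, in males and in females under every alternative run, and the counts of genes that fell, passed in females, passed the interaction or differed by sex were 0 in all. The count that rose over both sexes was 9 (1.02% of all genes and 1.08% of all probe sets). By analysis of variance on linear signals it was 7 (1.58% of all probe sets). It was 4 with no replicate block (0.442%) and 2 with no filter on present calls (0.133%). The count was 0 once the actin ratio was a covariate, in series 1 and 2 only and in series 3 to 5 only. With 1 series or array left out it ran from 0 to 12. It was 3 without Hyp female 4, 4 without Hyp male 2, normal female 2, 3 or 5, Hyp female 3, or normal male 4 or 5, and 5 without Hyp male 1 or 3, normal male 2 or normal female 4. Of the 25 repeats, the call was lost in 3 for Ushbp1, 4 for Clec14a and for Flt1, 6 for Sox18, 17 for Cldn5, 20 for Pecam1, Plvap and Stab2, and 21 for Stab1. The count in males, 1, was 5 with a pseudocount of 64, 2 with present calls on 10 or more arrays, 3 by analysis of variance on linear signals, and 0 with no replicate block, no filter, the actin covariate or either set of series; left-out series or arrays gave 0 to 2.

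Direction turned for none of the 9. With the actin covariate it turned for 6 others: Aplnr (-0.038), Cdh5 (-0.05), Notch4 (-0.09), Rasip1 (-0.14), Sox7 (-0.14) and Lyve1 (0.16). In series 1 and 2 it turned for 8: Aplnr (-0.022), Cd34 (-0.01), Cdh5 (-0.02), Mmrn2 (-0.04), Notch4 (-0.04), Ramp2 (-0.10), Rasip1 (-0.14) and Sox7 (-0.07). In series 3 to 5, and over left-out series or arrays, Hey1 alone turned (0.15, and -0.14 to 0.15). Fits with fewer arrays have fewer degrees of freedom; otherwise the cause was not tested. Low signals, as for Lyve1 and the called gene Stab2, and few present calls, as for Flt4, limit what can be read.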
